A study of Mus musculus with 2 samples.

Results

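Binding of NRF1 (nuclear respiratory factor 1) was measured by ChIP-seq in mouse B-cell lymphoma cells of the line CH12.LX, and 179 of 10979 peaks on chromosomes 1 to 19 of mm9 lay at the starts of noncoding RNA genes. A peak counted as one of these when its summit, the base of highest signal within the peak, lay within 1000 bp of the 5′ end of a noncoding gene and over 1000 bp from every start of a protein-coding transcript in GENCODE vM1. The members were therefore chosen by position alone, and neither peak signal nor sequence entered the choice. The samples were 2 biological replicates in 1 group, the labels name no treatment, and the line comes from mouse strain B10.H-2aH-4bp/Wts. The mm9 list was made from both replicates together, so replicate values came from separate lists on mm10. Read depth is unknown. No statistical test was made, since there was 1 group and peaks are not replicates. Shares of peaks are given with 95% Wilson intervals. Beside a share of 0 stands instead the limit that a count of 0 allows, taken as 3 counts of the total. Both cover counting error only.

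NRF1 binds DNA as a dimer, at a GC-rich, nearly palindromic site found in many CpG-rich promoters, and is known for its part in transcribing nuclear genes for mitochondrial proteins, for ribosomes and for the cell cycle. Long noncoding RNAs are mostly transcribed by RNA polymerase II from promoters much like those of coding genes, and their starts often lie close to a coding gene that runs the other way. Small structured RNAs such as U6, 7SK, vault RNA and Y RNA are made by RNA polymerase III, while most snoRNAs and many miRNAs are cut out of longer host transcripts.

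Sites under the summits are shown first, because sequence was not used to choose the members. They are 15 of the 34 sites found, chosen to show the forms found among the stronger members. Each sequence is the reference genome of build NCBIM37 (mm9), written 5′ to 3′ on the strand given, with the 10 bases of the NRF1 site in capitals, and the coordinates are those of the capitals. The first 4 carry the palindromic form of the NRF1 consensus, the next 4 its T6C form, and the last 7 differ from the palindrome by 1 base outside the consensus.
Gm15608 (chr10:81641430-81641439, plus strand): agcagtgcgcGCGCATGCGCtgctttcatt
8030453O22Rik (chr6:39477451-39477460, plus strand): tacttccaggGCGCATGCGCatgctaaggg
Spata5l1 (chr2:122456348-122456357, plus strand): ttccttcttgGCGCATGCGCgccgcctgca
4930511F01Rik (chr2:142728766-142728775, plus strand): tgaaaatgggGCGCATGCGCaatagcagaa
4833417C18Rik (chr11:95720308-95720317, minus strand): gggaggcactGCGCACGCGCgccgagtcgg
4930412C18Rik (chr4:9697778-9697787, minus strand): gaggatacccGCGCACGCGCcgctcacaca
Ascl4 (chr10:85391445-85391454, minus strand): cgttcacacaGCGCACGCGCtgccgctcgc
Ttc28 (chr5:111308794-111308803, minus strand): cgccctcaccGCGCACGCGCccgcgcgccc
1300002E11Rik (chr16:21794406-21794415, plus strand): ggcagaggtgGCGCCTGCGCattggggttg
Telomerase-vert (chr3:30494498-30494507, plus strand): caaacctggaGCGCCTGCGCgcgctgacgt
4930547M16Rik (chr10:39619025-39619034, plus strand): cctccccgccGCGCAGGCGCggtgtccctc
Gm12865 (chr4:118670012-118670021, plus strand): caacctcattGCGCATGCTCaggcaaggca
Gm13201 (chr4:147449643-147449652, plus strand): gcaaacctctGCGCATGCGTagttctaaag
1700064E03Rik (chr11:69214993-69215002, plus strand): ccagcacagtACGCATGCGCagtggaaagc
Gm13421 (chr2:27395922-27395931, plus strand): caccgtgtctCCGCATGCGCagcgaaggct

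Base changes are counted from 1 at the 5′ end of the site as written and are relative to the palindromic form. Sites with a mismatch outside the consensus were all written on the plus strand. The palindrome reads the same on both strands, so A5C is T6G on the other strand, and G1A is C10T. The sites of 1300002E11Rik and of Telomerase-vert, the RNA component of telomerase, had A5C. The site of 4930547M16Rik had T6G, the same change read on the other strand. That of Gm12865 had G9T and that of Gm13201 had C10T. At the first base as written, 1700064E03Rik had G1A, the same change as that of Gm13201, and Gm13421 had G1C.

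The NRF1 consensus, searched on both strands within 50 bp of the summit, was found at 14 of 179 members (7.82%, interval 4.72 to 12.7), against 8.73% of all peaks. Allowing 1 mismatch, 34 members had a site (18.99%, interval 13.92 to 25.37), against 25.4% of all peaks. The consensus was found at 10.84% of the 7065 peaks at protein-coding promoters and at 4.79% of the 3735 peaks near neither kind of start, called other distal peaks here. With 1 mismatch allowed, those shares were 27.74% and 21.15%. The members' share thus lay between the other classes for the consensus, and below both with 1 mismatch allowed, where its interval overlapped that of other distal peaks and not that of promoter peaks. In windows of the same length centred 500 bp to either side of the members' summits, 0 of 358 held a site of either kind. This allows a share of up to 0.838%. Over all peaks, 0.137% of 21958 such windows held the consensus and 0.351% a site with up to 1 mismatch, so the 0 does not set the members apart.

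The sites lay close to the summit. Their middle was a median of 10 bp from it, and 32 of the 34 lay within 20 bp. Among the 14 exact sites, 7 were palindromic and 7 had T6C. Among the 20 sites with a mismatch, as written on the plus strand, T6G and A5C were found 5 times each, C10T 3 times and G9T 2 times. The 5 other changes were found 1 time each. On the other strand T6G is A5C, C10T is G1A and G9T is C2A, so each pair is 1 change. G1A and C2A were among the changes found 1 time. No member had more than 1 site of the kind counted for it. Where the exact consensus was found, further sites with 1 mismatch were not counted.

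The sites were counted by noncoding type. The 135 members at long RNA genes, made up of 80 lincRNAs and 55 genes typed processed transcript, held all 14 exact sites and 30 of the 34 sites. Short RNA genes had 44 members, with 22 at snRNA, 10 at snoRNA, 7 at miRNA and 5 at miscellaneous RNA genes. None of these 44 held the exact consensus, which allows a share of up to 6.82%, and 4 held a site with 1 mismatch. The GENCODE version used has no gene typed antisense, but 29 members lay at genes with an antisense transcript.

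Peak signal is the value the authors' caller gave each peak, on a scale that is not stated, and it only ranks peaks within the mm9 list. The members had a median signal of 89.05 (quartiles 47.97 and 361.5, range 34.64 to 5972), against 143.6 at protein-coding promoters and 66.68 at other distal peaks. Of the 179 members, 82 (45.8%) were at or above the median of all peaks, 100.7. Only 10 were among the strongest 1097 peaks. The medians of lincRNA and processed transcript members were close, at 95.44 and 96.46. snRNA and snoRNA members were lower, at 61.77 and 68.05, and the 7 miRNA members were higher, at 337.7.

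**Figure D1:**
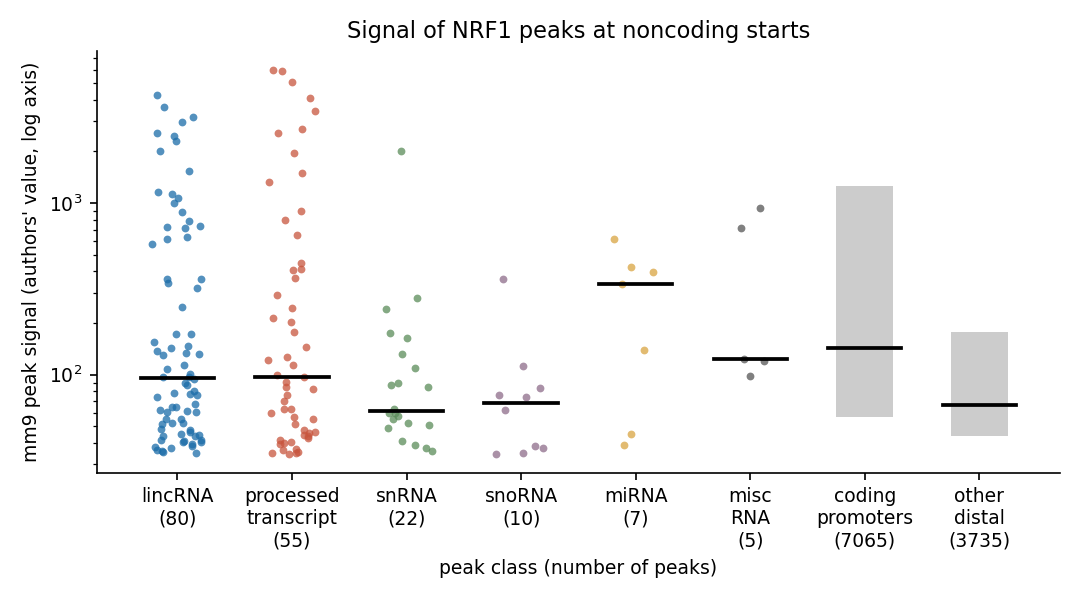
Signal of each member peak (point) by the type of its noncoding gene, with the median of each class as a black line, on a log axis. Grey boxes give the quartiles of coding promoter and other distal peaks. Members reached 5972 in processed transcripts and 4247 in lincRNAs, while snoRNA members stayed at or below 362.3.

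The strongest member lay at 1700064E03Rik, an antisense transcript inside an intron of Kdm6b, which encodes a histone H3K27 demethylase, with a signal of 5972 and its summit 28 bp upstream of the 5′ end. RefSeq lists that name as a synonym of Kdm6b, whose own start lies elsewhere. Gm15608 followed at 5893, and 8030453O22Rik, which runs antisense within Dennd2a, had 5056. The lincRNA 1300002E11Rik had 4247, with its summit 20 bp upstream of its 5′ end and 6483 bp from the start of Ehhadh, which encodes a peroxisomal enzyme of fatty acid oxidation and carried no peak at its own start. Gm12865 had 4109 and Gm12059 had 3609. These 6 peaks ranked from 311 to 766 among all 10979.

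The other 6 of the 12 strongest were Spata5l1 at 3438, 4833417C18Rik at 3155, Gm13421 at 2959, 1500011K16Rik at 2697, Gm17716 at 2578 and 4930511F01Rik at 2559. RefSeq now has 1500011K16Rik as Mtln, which encodes a mitochondrial micropeptide, and has Spata5l1 as protein coding too. 4930511F01Rik is Kif16bos in RefSeq and runs divergent from Kif16b, whose own start, 1434 bp from the start of 4930511F01Rik, carried a peak of 2987. In 9 of the 12 strongest members a site was found, and in 5 of these it was exact. In the 12 weakest there were 0 sites.

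**Figure D2:**
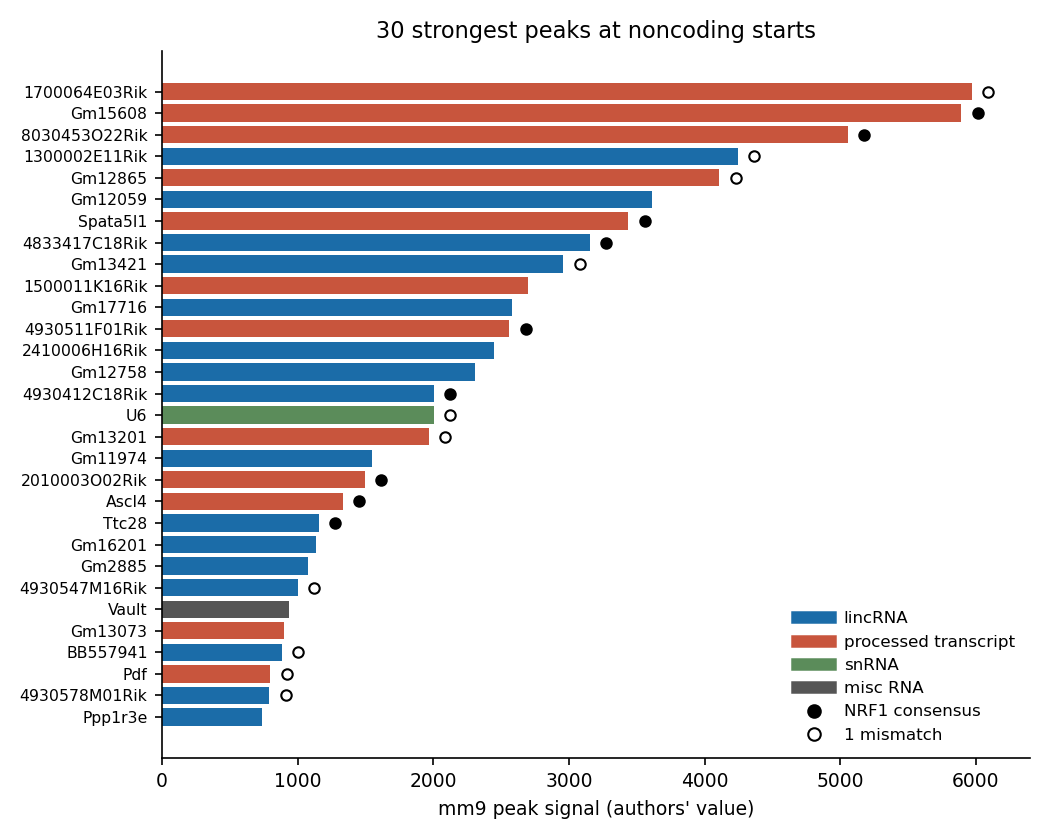
Signal of the 30 strongest members as bars, coloured by noncoding type, with a filled circle where the summit had the NRF1 consensus and an open circle where it had a site with 1 mismatch. Among the top 12, 9 carry a circle, and Gm12059, 1500011K16Rik and Gm17716 do not.

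The mm9 peaks were divided into 4 equal classes by signal, from class 1, the weakest, to class 4, and the share of members with a site was higher in each class than in the one below. With 1 mismatch allowed it was 0 of 47 members in class 1, which allows a share of up to 6.38%, then 6.0% of 50 in class 2, 17.78% of 45 in class 3 and 62.16% of 37 in class 4 (interval 46.1 to 75.94). At protein-coding promoters the same shares were 1.10%, 2.48%, 15.0% and 70.8%. At other distal peaks they were 6.92%, 14.8%, 30.5% and 63.8%. In class 4 the intervals of the members and of both other classes overlapped. The exact consensus there was found at 27.03% of members, 27.84% of promoter peaks and 19.01% of other distal peaks. Members with a site had a median signal of 841.1 and those without one 70.52, yet 14 of the 37 members of class 4 had no site.

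**Figure D3:**
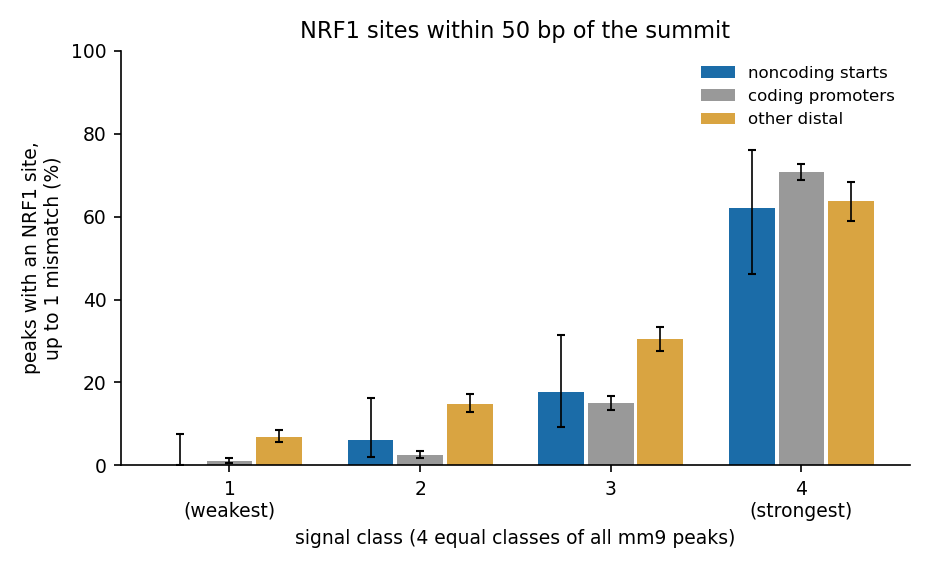
Share of peaks with an NRF1 site, up to 1 mismatch, within 50 bp of the summit, by signal class of all mm9 peaks, for members, coding promoters and other distal peaks, with 95% Wilson intervals, that of members in class 1 reaching 7.56%. In all 3 groups of peaks class 4 has the highest share, 62.16% of members, 70.8% of promoter peaks and 63.8% of other distal peaks.

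Other members with the exact consensus were 4930412C18Rik at 2005, 2010003O02Rik at 1494, Ascl4 at 1335, Ttc28 at 1154, Gm13814 at 712.0, Gm17422 at 581.0 and E130102H24Rik at 214.0, and 4930511M06Rik at 79.86. 2010003O02Rik is the micropeptide gene Smim27 in RefSeq, and its peak lay in an intron of Topors, which encodes a ubiquitin and SUMO ligase. Pdf, the gene of mitochondrial peptide deformylase, held a pair of members. One had a signal of 797.2 and a T6G site, and the other a signal of 76.28 and a T6C site.

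CpG-rich DNA, taken as GC above 0.5 and a CpG observed to expected ratio above 0.6 in the 1000 bp around the summit, surrounded 75 of 179 members (41.9%, interval 34.9 to 49.2), against 57.4% of all peaks. The share was 82.76% at protein-coding promoters and 10.2% at other distal peaks, and neither interval overlapped that of the members. lincRNA members were CpG-rich in 55.0% of cases and processed transcript members in 32.73%, with overlapping intervals. CpG-rich members had a median signal of 132.0 and the others 78.57. A site with up to 1 mismatch was found at 22.67% of the CpG-rich and 16.35% of the other members, with overlapping intervals.

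Motifs of other promoter factors were searched in the same window, on both strands. The cyclic AMP response element TGACGTCA, bound by CREB, was found at 7 members (3.91%, interval 1.91 to 7.85) and at 1.47% of all peaks. CCGGAAG, an ETS motif, was found at 4 members (2.23%), against 6.98% of all peaks. AAGATGG, a YY1 motif, and GGGGCGGGG, an SP motif, were found at 3 members each (1.68%), against 4.74% and 5.71% of all peaks. CCAATCA, an NFY motif, was found at 2 members (1.12%), against 2.92% of all peaks. Other distal peaks held the ETS motif in 2.30% of cases, the YY1 motif in 3.83%, the SP motif in 1.53%, the NFY motif in 1.77% and the CREB motif in 0.482%. Promoter peaks held the ETS motif in 9.57%, the YY1 motif in 5.29%, the SP motif in 8.025%, the NFY motif in 3.57% and the CREB motif in 1.925%. For the CREB motif the members' interval overlapped that of promoter peaks and not that of other distal peaks. A match says only that these letters lay in the window.

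Distances of the summit from the 5′ end are a description only, since the rule kept peaks within 1000 bp. The median distance was 183 bp over all members, 139 bp at long and 230.5 bp at short RNA genes. Within 100 bp of the 5′ end lay 58 of 135 summits at long and 12 of 44 at short genes, and 107 of all 179 lay upstream. At miRNA genes, whose annotated 5′ end is that of the hairpin rather than of the primary transcript, 6 of 7 summits lay over 500 bp away and 6 lay upstream.

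**Figure D4:**
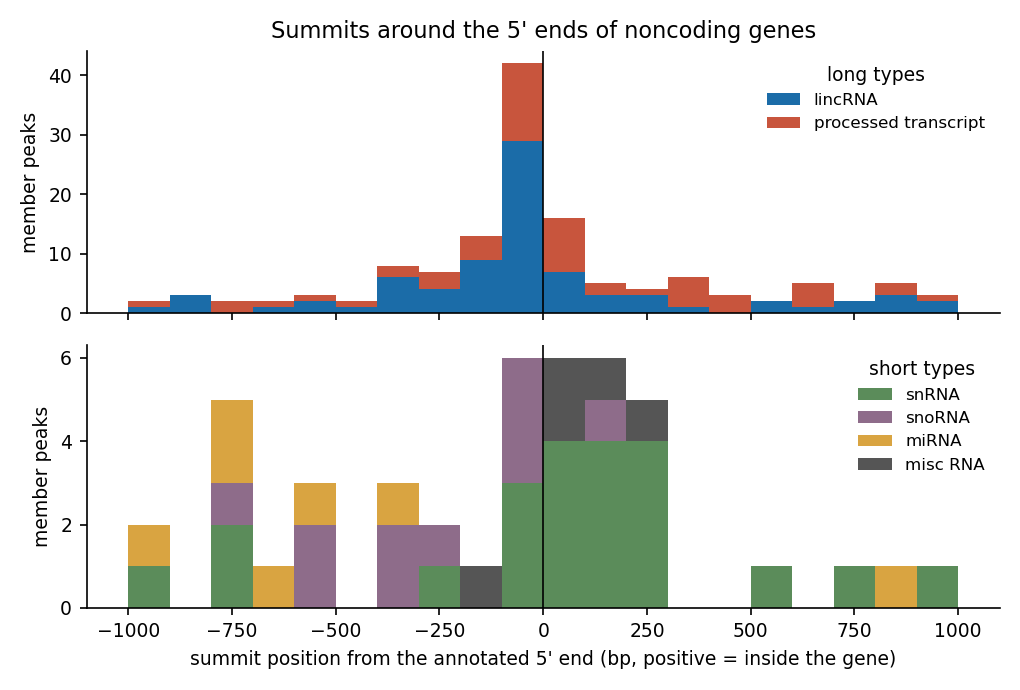
Number of member peaks by the position of the summit relative to the annotated 5′ end, in bins of 100 bp, upstream to the left. Of the summits at long RNA genes 58 of 135 are within 100 bp, and of those at short RNA genes 12 of 44.

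The rule also set a floor of 1000 bp on the distance from a coding start. Above it, the members' summits were a median of 16633 bp from the nearest coding start and other distal peaks, with the same floor, 15760 bp. Over 10000 bp away were 112 members (62.6%) and 62.0% of other distal peaks. The summit lay outside coding genes in 133 cases, in an intron in 32 and in an exon or UTR in 14. The nearest coding gene ran divergent from the noncoding gene in 58 cases, 15 of them within 5000 bp. In 76 cases that coding start had a peak of its own, and 36 of those members were stronger than it. The divergent cases and the coding starts with a peak were not counted for other peaks. They therefore cannot set the members apart.

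Of the noncoding genes with no coding start within 1000 bp, 77 of 670 lincRNA genes (11.49%) had a peak, against 54 of 2047 processed transcript genes (2.64%). Among the short types the share ran from 0.735% of miRNA genes to 1.61% of snRNA genes. A further 529 peaks lay within 1000 bp of both a noncoding and a coding start and were not members.

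snoRNA host genes, whose introns hold snoRNAs, gave 5 genes with a member among 13 annotated as noncoding, against 2.23% of all 8384 noncoding genes and 6.41% of lincRNA genes. A further host gene, 2410004N09Rik, is Epb41l4aos in RefSeq and had a member of 78.03, but the list's spelling of its name did not match and it is outside the count. Their signals were 1547 at Snhg15, annotated as Gm11974, 724.4 at Snhg12, 107.2 at Snhg7, 88.91 at Snhg5 and 51.58 at Snhg20, annotated as 2810008D09Rik. Another 3, Snhg1 at 3005, Snhg3 at 7374 and Snhg9 at 491.8, had a peak that also lay at a coding start, and 5 had none. Only Mir17hg, the host of the miR-17-92 cluster, was a member among 7 miRNA host transcripts, at 91.19.

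Among 26 well-studied long noncoding RNAs, 4 had a peak, against 7.88% of all noncoding genes and 27.6% of lincRNA genes, and Malat1, Neat1 and H19 were among the 22 without one. The 3 with a member all lay below the median signal of all peaks. Pvt1, which neighbours Myc, had 60.4. Nespas, an antisense transcript of the imprinted Gnas locus, had 44.22, and Trp53cor1, which lies upstream of the cell cycle inhibitor gene Cdkn1a, had 44.12. Tug1 had a peak of 46.78 that also lay at a coding start.

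Short structured RNA names stand for several annotated copies, few of which had a peak. All copies of a name were counted alike, and which of them are active genes was not examined. A low share of copies thus does not show that an active gene lacked a peak. A member lay at 1 of 309 copies of 7SK, 1 of 2 of Telomerase-vert, 1 of 2 of Vault and 0 of 24 of Y_RNA, and over all 458 miscellaneous RNA genes 0.873% had a member. Vault, a vault RNA gene, had 937.1, and Telomerase-vert had 716.9 with its summit 174 bp inside the gene. 7SK, whose RNA holds the elongation factor P-TEFb inactive, had a pair of members, of 123.4 and 97.85, at 1 of its copies on chromosome 9. The strongest snRNA member, at 2001 and with a G9T site, lay 977 bp upstream of a U6 gene but 5 bp from the RefSeq start of the noncoding gene Gm40716. A member near another U6 gene, at 278.0 and with an A5C site, lay 701 bp upstream of it and 134 bp from the RefSeq start of the noncoding gene Gm35239. The strongest snoRNA member lay at a U3 copy within Tex14, at 362.3, and 6 members lay within that gene, at copies of U3 and U1. Some copies of small RNA genes may be alike in sequence, so that reads could not always be placed on 1 copy, which was not examined. A name that several genes share was carried by 32 members.

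miRNA genes gave 7 members, the strongest at Mir698 at 618.7, followed by Mirlet7i at 424.7 and Mir1932 at 398.6. Their mature sequences, from RefSeq on GRCm38.p6, are given with the seed, the bases that pair with a target, in capitals, to show which miRNAs these genes make.
mmu-let-7i-5p: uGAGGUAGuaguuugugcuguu
mmu-let-7i-3p: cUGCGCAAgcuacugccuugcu
mmu-miR-698-5p: uGUGGGUGggacagggauguu
mmu-miR-698-3p: cAUUCUCGuuuccuucccu
mmu-miR-1932: gUUGCGGAcagcgcuaggucgg
No seed is shared among the 5 sequences. The summit lay 783 bp upstream of the hairpin at Mirlet7i, 767 bp at Mir698 and 368 bp at Mir1932, and the last had a site with C8G. The summit assigned to Mir1932 also lay 5 bp from the RefSeq coding start of Rnf213, which GENCODE vM1 does not have within 1000 bp.

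Chromosome 11 held 41 of the 179 members (22.9%), against 12.1% of all peaks and 9.29% of noncoding genes. Its members had a median signal of 63.35, against 97.19 elsewhere, and 12.2% of them had a site with up to 1 mismatch, against 21.0% elsewhere. The intervals of those shares overlapped. Other peaks on chromosome 11 were lower too. Other distal peaks there had a median of 55.73 and a site in 13.84%, against 66.68 and 21.15% over all such peaks. Promoter peaks there had 113.2 and 22.77%, against 143.6 and 27.74%, and all peaks there 81.21 and 19.2%, against 100.7 and 25.4%.

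The noncoding label was checked against RefSeq. By name, 99 members were matched, and 12 of them (12.1%) belonged to genes that RefSeq has as protein coding. By exact sequence match of RefSeq promoters, 11 members lay at a coding start, a check that found 79.9% of the protein-coding promoter peaks. Another 74 lay at a RefSeq noncoding start only and 94 at no RefSeq start of either kind in a table that is not complete. The exact consensus was found at 9.46% (interval 4.66 to 18.26) and 3.19% (interval 1.09 to 8.97) of them, and the intervals overlapped. Either the name or the coding start marked 17 members, Spata5l1, Mtln and Ttc28 among them. At the 11 members at a coding start the median signal was 398.6, and 4 (36.4%, interval 15.2 to 64.6) had the exact consensus. Without all 17, 5.56% of the remaining 162 had it.

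Most member genes that could be followed to mm10 had a peak near their start there. Of 94 genes with 1 RefSeq match, 84 (89.4%) had a summit of the optimal set within 1000 bp of the start used. That set is the larger of the authors' thresholded sets. The summit was not matched to the member peak itself, so another peak near the start could count. At 2010003O02Rik the mm9 summit lay 949 bp from the RefSeq start, of Smim27, and the mm10 summit 27 bp. At Pdf these distances were 385 and 145 bp. For 25 of the 94 genes the start was an end of the RefSeq gene, chosen by the strand of the GENCODE gene. For 3 it was the end of a miRNA hairpin. Of those 84 summits, at least 9 also lay within 1000 bp of a RefSeq coding start, in a promoter table that is not complete. Ppp1r3e and Spcs3, coding in RefSeq, are outside that count, though their summits lay 4 and 14 bp from the gene end used. Genes on chromosome 18 had no coding start to compare. A summit was present in 82 of 94 in the strongest peaks of replicate 1 and in 81 in those of replicate 2, with lists as long as the optimal set, and in 79 genes in both. Of the 49 genes with mm9 signal at or above the all-peak median 46 had an optimal summit, and of the 45 below it 38. The 84 had a median optimal signal of 65.66, against 37.68 for all 17256 optimal peaks. These genes already had a peak in the mm9 list, which is shorter, at 10979 peaks, and comes from the same replicates. The 2 medians therefore cannot show how strong members are. Nor can the 89.4% set members apart, since no such share was taken over other peaks. Within the mm9 list the members' median was below that of all peaks, at 89.05 against 100.7. Of the 10 genes without an optimal summit, 8 had no RefSeq start placed within 1000 bp of the mm9 summit. The site of their mm9 peak may thus not have been examined on mm10. Among these 8 were Gm12059, Ascl4, Mir17hg and 1700064E03Rik, whose name led to Kdm6b. There the strand of 1700064E03Rik, which runs antisense, was used, so the 3′ end of Kdm6b was examined.

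Replicate values are given for strong members first. At 8030453O22Rik replicate 1 had a signal of 323.8 and replicate 2 had 336.1, a mean of 330.0 ± 8.71 (SD, n = 2). At 1300002E11Rik they had 308.0 and 316.0, and at Gm12865 218.1 and 238.3. At Snhg15 the values were 251.6 and 232.3, and at Snhg12 152.7 and 156.0. Mirlet7i had 104.8 and 122.0. The widest relative gap was at Gm17382, with 7.08 and 27.3, and Snhg20 had 11.1 and 28.4. Others of low signal differed little, as Trmt61b with 25.7 and 25.9. Over the 82 genes with a peak in both replicates, the SD was a median of 13.4% of the mean, with a range of 0.409% to 83.1%. It was a median of 7.80% in the 41 genes with the higher replicate means (up to 53.1%) and 33.7% in the 41 with the lower (0.642% to 83.1%). Replicate 1 was the higher in 52 genes.

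**Figure D5:**
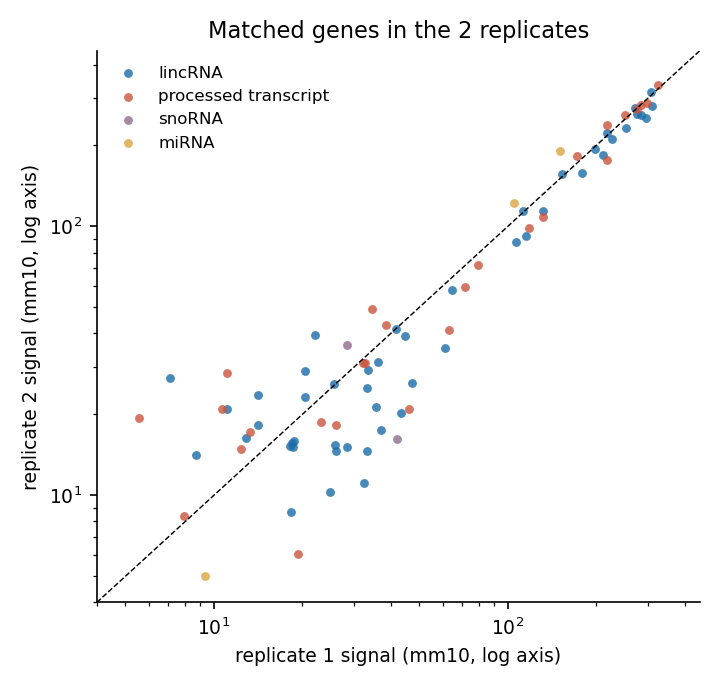
Signal in replicate 2 against replicate 1 on mm10, both on log axes, for the 82 matched member genes with a peak in both, coloured by noncoding type, with a dashed line of equal values. Points of high signal lie nearer the line, as 8030453O22Rik with 323.8 and 336.1, while those of low signal include both close pairs and wide ones such as Gm17382 with 7.08 and 27.3.

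Members near the limits of the rule are given as a description. The members closest to a coding start were D930049A15Rik at 1040 bp with a signal of 97.22, 4933439C10Rik at 1057 bp with 37.95 and a U6 gene at 1061 bp with 131.6. Just outside lay the peaks near Mir1956 at 997 bp from the start of Eif4e with 7436, C530005A16Rik at 951 bp with 40.71 and AC155262.1 at 926 bp with 247.4. At the other limit, the U6 gene at 977 bp, Mir1900 at 970 bp and Gm12279 at 949 bp were members, with signals of 2001, 136.5 and 34.66. Just outside were peaks near 9130213A22Rik at 1012 bp, B230206L02Rik at 1027 bp and Gm17556 at 1036 bp, with 80.5, 38.0 and 52.83. The genes 9130213A22Rik and B230206L02Rik each had another, closer peak that was a member, of 55.23 and 48.06.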

How the data were processed

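NRF1 peaks from 2 replicates of CH12.LX were used as deposited. Per the text notes deposited with the samples, the mm9 list was derived from the alignments of both replicates, and no control is named for it. Those notes also give the mm10 lists as relaxed calls per replicate with a control, from which the conservative and optimal sets were thresholded by irreproducible discovery rate. No aligner, caller or read number was given in the sources, which leaves the depth unknown. The deposited signal value of each peak is the authors' own, on a scale not stated, and signals on mm9 and mm10 were never compared.

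Summits were compared with GENCODE vM1 starts on NCBIM37. Genes were passed to mm10 by RefSeq symbol or unique synonym (GRCm38.p6), with no coordinate converted. Starts came from the RefSeq promoter sequences for 66 genes and from miRNA hairpins for 3. For the other 25 the strand of the GENCODE gene chose the end of the RefSeq gene, which can be a 3′ end. Each gene took the optimal summit nearest to that start, which was not always its strongest and need not be the member peak. A replicate's signal is that of its relaxed peak that overlaps this optimal peak with the nearest summit. RefSeq starts were placed on mm9 by exact match of the RefSeq promoter sequences, a table that is not complete. Site search and distances were tested on simulated data. Python 3.11.15, pandas 2.3.3, numpy 2.4.6, pysam 0.24.0 and statsmodels 0.14.6 were used.

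Named members are the 12 strongest, the strongest of each type, up to 12 with the consensus, those in the 4 gene lists and the 3 nearest each limit on either side. Others were named after their values were seen: members with a 1-mismatch site whose sequence is shown, the Pdf members, 4930511M06Rik, 2410004N09Rik, miRNA genes, a U6 copy, and genes that show the spread of the replicates or the RefSeq check. The members and lists were chosen with earlier results of these data known. Terc, Rn7sk, Vaultrc5 and Rny1 were matched by hand to the annotation's names once the files had been read, and the alternatives on chromosome 11, RefSeq coding genes and shared names were added after seeing the data. Of the 14 exact sites, 8 are shown as sequence.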

Additional observations from a re-analysis of the deposited data

How the results depend on the processing

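The number of members stayed within 1.5 times of 179, between 135 and 245, when either distance was set to 500 or 2000 bp, when every transcript of coding or noncoding genes was used, and without chromosome 11, without genes that RefSeq has as coding or without shared gene names. The last 3 settings were chosen after seeing the data. Under the same settings the share with the exact consensus ran from 5.56% to 9.52%, the share at or above the median signal from 44.4% to 48.9% and the CpG-rich share from 36.3% to 47.4%. Keeping only peaks at or above the median signal left 82 members, with the consensus at 14.6% and CpG-rich DNA at 51.2%; it lowered the list genes with a member from 12 to 6 and was not run for signal itself, where it fixes the answer. The consensus share was 18.99% with 1 mismatch allowed and 1.68% with a longer consensus, and the cause lies in the definitions.

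Of the genes followed to mm10, 79.8% had a summit within 500 bp of the start, 86.2% in the conservative set and 89.4% by peak interval. Leaving out 1 replicate gave 86.17% to 87.23%. No paired analysis was possible because both libraries belong to 1 group. Without chromosome 11, or without genes that RefSeq has as coding, 9 of the 12 strongest members stayed. Unknown depth limits what the absence of a peak can show, and names limited the match to mm10 to 94 genes.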
